A study of Mus musculus with 12 samples.

Results

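The arrestin family was followed in bone marrow-derived macrophages (BMDMs) of female C57Bl/6J mice that had been treated with IL-4, Wnt3a or both. Its members were taken by name and are 7 of the 48526 genes in the count table: *Txnip*, *Arrdc1*, *Arrdc2*, *Arrdc3*, *Arrdc4*, *Arrb1* and *Arrb2*. All 7 passed the filter on low counts, which left 12421 genes tested. *Txnip* was chosen by its measured values in earlier results of these data, in which its IL-4 response differed with Wnt3a. Its values are therefore given as a description, without a test. The confidence intervals printed for it do not allow for that choice and are not to be read as a test. The other 6 members were included for their family name, with earlier results of these data known, and were tested.

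Marrow cells were cultured with 10 ng/mL of M-CSF and used on day 7, in medium with 1 g/L of glucose. BMDMs of each of 3 mice were then left untreated or received 100 pg/mL of IL-4, 100 ng/mL of Wnt3a, or both for 16 hr, in the same low-glucose medium, giving 1 sample of each kind per mouse and 12 samples in all. No genetic change is given for the mice, and their age is not given in the labels. Macrophage markers were abundant in every library (7 of 7 present, summed level from 43590 to 67680 CPM, counts scaled to a library total that is the same for all samples), and the summed level of 3 T cell markers was at most 0.144. The sums were larger for 6 neutrophil markers (19.1 to 40.6 CPM) and 4 stromal markers (5.74 to 29.2 CPM), both highest in an IL-4 library.

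The columns deposited for Wnt3a and for Wnt3a+IL4 share reads. In each of the 3 mice, the Wnt3a count of every one of the 48526 genes lay between 1 and 2 times the Wnt3a+IL4 count, with 0 genes outside these bounds. The columns were therefore taken apart into the difference (Wnt3a minus Wnt3a+IL4) and the remainder (2 times Wnt3a+IL4 minus Wnt3a), each used as 1 library per mouse. Both come from cells that received Wnt3a. Which of them also received IL-4 is not given, so results that depend on it are given for both assignments. The 12 libraries obtained in this way held 13342492 to 17453377 counts. *Retnla*, an IL-4 target in macrophages, had 781, 535 and 618 counts in the IL-4 libraries of mice 1 to 3 and at most 1 in any other library. *Mgl2*, another IL-4 target, had 3 to 11 counts in the difference and 51 to 97 in the remainder, against 13 to 14 in untreated cells. *Axin2*, a target of Wnt/β-catenin signalling, had 1, 1 and 5 counts in the difference and 11, 9 and 13 in the remainder, against at most 1 in the libraries without Wnt3a.

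Arrestins share a fold of paired, curved β-sheet domains and act as adaptors that bring membrane proteins to the cell's internalization and ubiquitination machinery. The β-arrestins *Arrb1* and *Arrb2* bind activated G protein-coupled receptors, stop their signalling to G proteins and link them to clathrin and AP-2. The α-arrestins, *Txnip* and *Arrdc1* to *Arrdc4*, carry PPxY motifs that recruit NEDD4-family ubiquitin ligases. *Txnip* also binds thioredoxin and promotes the internalization of the glucose transporters GLUT1 and GLUT4. *Txnip* and *Arrdc4* are known glucose-responsive targets of the transcription factor MondoA and its partner Mlx.

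*Arrdc4* RNA was higher in the Wnt3a-derived libraries than in untreated ones. Mean *Txnip* RNA was somewhat lower there, although its difference libraries overlapped the untreated ones. The promoters of both genes are shown here. The 250 bases before each RefSeq transcript start (GRCm38.p6) read 5′ to 3′ on the gene's strand, with E-box-like hexamers (CACGTG or CACGAG) and CCAAT or its complement in capitals.
Txnip, chr3:96557707-96557956, plus strand: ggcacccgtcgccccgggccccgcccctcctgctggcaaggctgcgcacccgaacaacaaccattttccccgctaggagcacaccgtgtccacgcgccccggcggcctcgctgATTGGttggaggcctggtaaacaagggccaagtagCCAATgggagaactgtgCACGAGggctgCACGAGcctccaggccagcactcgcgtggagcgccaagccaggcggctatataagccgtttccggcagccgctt
Arrdc4, chr7:68749239-68749488, minus strand: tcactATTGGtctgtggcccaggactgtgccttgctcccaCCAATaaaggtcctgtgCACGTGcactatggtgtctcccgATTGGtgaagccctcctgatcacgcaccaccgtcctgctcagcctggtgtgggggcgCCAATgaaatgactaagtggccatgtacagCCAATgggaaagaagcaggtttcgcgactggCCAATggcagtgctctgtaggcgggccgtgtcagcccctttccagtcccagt

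The *Txnip* window held 2 CACGAG hexamers, at 85 to 80 and 74 to 69 bases before the start. Together they match a pair of CACGNG with 5 bases between them, the spacing of the carbohydrate response element to which MondoA and Mlx bind. This spaced pair, with both hexamers in the same orientation, was found in 15 of 32851 mouse promoter windows of the same length (0.0457%, both strands searched). Pairs in opposite orientation or with other letters were not searched, so the share is not that of carbohydrate response elements in general. The *Arrdc4* window held 1 CACGTG, 193 to 188 bases before the start, and not the spaced pair. CACGTG was found in 6.02% and CACGAG in 5.37% of all windows. CCAAT, the box bound by NF-Y, was found 2 times before *Txnip* and 6 times before *Arrdc4*, and at least once in 33.8% of all windows. Of the other members with a window, *Arrdc1* held 2 CACGAG, *Arrdc2* held 1 CACGAG and 3 CCAAT, and the first of the *Arrdc3* windows held 1 CCAAT. The motifs were chosen with the sequences known, and a match describes letters only.

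**Figure D1:**
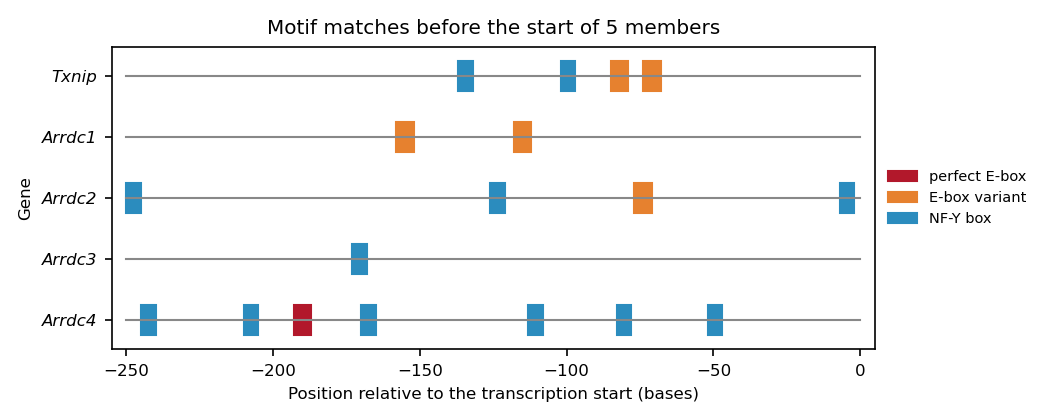
Positions of the motifs in the 250 bases before the transcript start of 5 arrestin family genes (x axis, bases from the start at 0; 1 line per gene). Each mark is 1 match on either strand, and the E-box-like pair of *Txnip* lies between 85 and 69 bases before its start, whereas the single E-box of *Arrdc4* lies 193 to 188 bases before its own.

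Levels are given as CPM, with library totals scaled by TMM, a factor that aligns the bulk of genes between libraries. Divided by exon length, the β-arrestin *Arrb2* was the highest member in untreated BMDMs, at 158 ± 8.88 CPM per kb (SD, n = 3), which ranked 213 of 12398 genes. *Txnip* followed at 111 ± 2.85 CPM per kb (rank 322) and *Arrb1* at 48.8 ± 4.35 CPM per kb (rank 838). *Arrdc1*, an α-arrestin that drives budding of small vesicles at the plasma membrane, ranked 1173 at 36.8 CPM per kb. *Arrdc2*, *Arrdc4* and *Arrdc3* were lower, at 8.97, 4.54 and 4.35 CPM per kb, with ranks from 4249 to 6381. Per exon length, *Arrb2* and *Txnip* thus led the family, and 3 of the α-arrestins lay far below them. Without the division *Arrb1* had the highest untreated mean, 546 CPM, ahead of *Arrb2* at 448 and *Txnip* at 347. The visual arrestins stayed low, with 3 to 21 counts of *Sag* per library and 0 counts of *Arr3* in all 12 libraries.

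**Figure D2:**
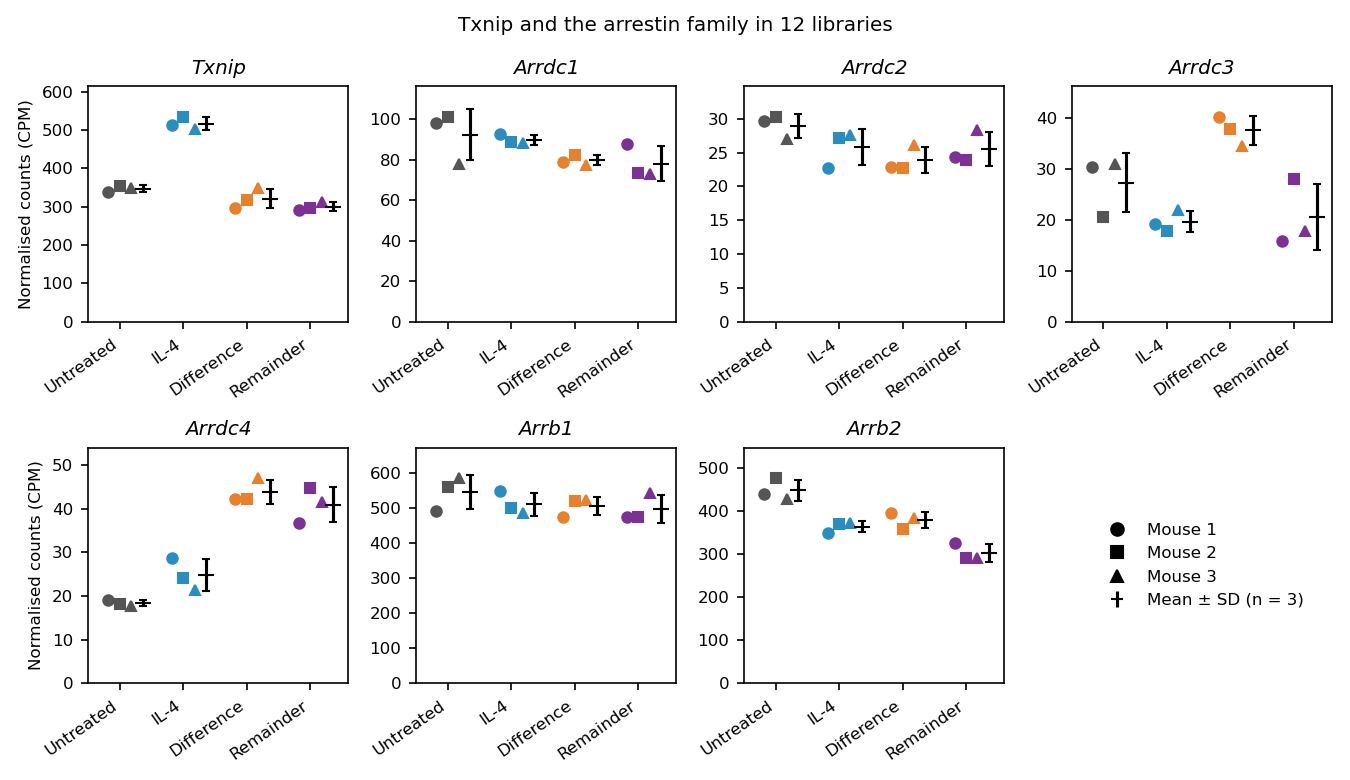
CPM (y axis, linear and from 0, own scale for each gene) of the 7 arrestin family genes in untreated, IL-4, difference and remainder libraries (x axis). Points are the 3 mice (1 symbol each), and bars give the mean ± SD. *Txnip* is highest with IL-4, *Arrdc4* is highest in both Wnt3a-derived groups, and *Arrb2* is lowest in the remainder.

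*Txnip* was highest with IL-4 alone and lowest in the Wnt3a-derived libraries. The gene (ENSMUSG00000038393) lies on the plus strand at chr3:96557957-96561883 (GRCm38). Its level was 337, 355 and 349 CPM in the untreated BMDMs of mice 1 to 3. With IL-4 it was 512, 535 and 504 CPM. The IL-4 libraries thus lay above all untreated libraries, at 1.49-fold the untreated level. On the log2 scale the change was 0.57 ± 0.07 (SE, 95% confidence interval 0.42 to 0.73), and it was similar in each mouse (0.60, 0.59 and 0.53). In the difference libraries *Txnip* was at 298, 317 and 348 CPM. The remainder libraries held 291, 296 and 313 CPM. These 2 groups overlapped each other, and the difference also overlapped the untreated libraries, whereas every remainder library lay below them. Among all genes, 19.8% had IL-4 ranges apart from untreated, and 35.6% had remainder ranges apart from it. In order of level, *Txnip* therefore ran from IL-4 through untreated to the difference and the remainder, and only the step from IL-4 to untreated exceeded the spread between mice.

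The change of *Txnip* between the 2 Wnt3a-derived groups was small beside its change with IL-4 alone. From the difference to the remainder, its log2 change was -0.10 ± 0.07 (SE, interval -0.26 to 0.06), and it was -0.03, -0.10 and -0.16 in the 3 mice. If the difference held Wnt3a alone, the IL-4 change with Wnt3a differed from the IL-4 change without it by -0.67 ± 0.10 (SE) on the log2 scale. With the other assignment the value was -0.48 ± 0.10. Under both assignments the IL-4 response of *Txnip* was thus smaller with Wnt3a, which is the property for which the gene had been picked. In the columns as deposited, which share reads, the Wnt3a column stood in for the difference and the Wnt3a+IL4 column for the remainder. The values were then -0.59 and -0.55, the latter with the Wnt3a+IL4 column taken as Wnt3a alone, against its label.

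Averaged over both Wnt3a-derived groups, *Txnip* was lower with Wnt3a. This comparison sets the mean of both Wnt3a-derived groups against the mean of the untreated and IL-4 groups, so it does not depend on which part received IL-4. The log2 change was -0.45 ± 0.05 (SE, interval -0.56 to -0.34, lower in 3 of 3 mice), and the fold was 0.733. It is given without a test, since it rests on the same libraries that picked the gene. The average mixes unlike steps, since both Wnt3a-derived groups lay closer to untreated than to IL-4 cells (log2 changes from untreated -0.11 ± 0.07 and -0.21 ± 0.07). Markers of neutrophils, which can persist in marrow cultures, were also highest with IL-4. Their sum over 6 genes was 32.4 to 40.6 CPM with IL-4, 25.5 to 31.7 in untreated, 20.3 to 32.3 in difference and 19.1 to 20.6 in remainder libraries, with *Ly6g* at 0 in untreated cells. The part of neutrophils or stromal cells in the *Txnip* values was not tested. In bulk samples, a change in the number of cells of one kind and a change in RNA per cell cannot be told apart.

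Part of the *Txnip* count could belong to a gene on the other strand. *Gm15441* overlaps 19.4% of the exon bases of *Txnip*, and the strand setting of the authors' counting is not given in the sources used here. *Gm15441* itself had 2 to 16 counts per library, against 4687 to 8545 for *Txnip*.

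*Arrdc4*, a close relative of *Txnip* that also responds to glucose, was higher with Wnt3a. The gene (ENSMUSG00000042659) lies on the minus strand at chr7:68736995-68749241. It was at 19.1, 18.1 and 17.8 CPM in the untreated BMDMs of mice 1 to 3. The difference libraries held 42.2, 42.3 and 47.0 CPM, and the remainder libraries 36.8, 44.7 and 41.5 CPM. All 6 Wnt3a-derived libraries thus lay above all 6 others.

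Against untreated BMDMs, *Arrdc4* rose 2.39-fold in the difference (log2 change 1.26 ± 0.12 SE, adjusted p = 2.7e-06, edgeR quasi-likelihood test with Benjamini-Hochberg adjustment). In the remainder it rose 2.24-fold (1.16 ± 0.12, adjusted p = 4.8e-06, edgeR). Averaged over both, the log2 change with Wnt3a was 0.99 ± 0.08 (interval 0.82 to 1.17, higher in 3 of 3 mice, adjusted p = 3.5e-07, edgeR). It was called in each of the 11 other settings tried for this average, with log2 changes from 0.92 to 1.11.

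With IL-4 alone, *Arrdc4* was at 28.7, 24.2 and 21.4 CPM, so that all 3 libraries lay above the untreated range. The log2 change was 0.44 ± 0.12 (SE, interval 0.19 to 0.69) and did not pass the test (adjusted p = 0.061, edgeR). DESeq2 (adjusted p = 0.022) and edgeR without the low-count filter (adjusted p = 0.032) did call it. CPM ranges that do not overlap were found for 19.8% of all genes between IL-4 and untreated. Against untreated, the share was 39.2% for the difference and 35.6% for the remainder. From the difference to the remainder, *Arrdc4* had a log2 change of -0.10 with an interval of -0.34 to 0.14 (adjusted p = 0.7, edgeR). The IL-4 change of *Arrdc4* with Wnt3a differed from that without it by -0.53 (interval -0.88 to -0.18, adjusted p = 0.22, edgeR) with the difference as Wnt3a alone, and by -0.34 (interval -0.69 to 0.01, adjusted p = 0.28, edgeR) with the remainder in that place. Both values have the sign of those of *Txnip*, and neither passed the test.

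The ratio of *Txnip* to *Arrdc4*, both per exon length, sets both transcripts against each other within each library. It was 24.5 ± 1.45 (SD, n = 3) in untreated BMDMs and 27.4 ± 3.86 with IL-4. In the difference and the remainder it was 9.47 ± 0.30 and 9.51 ± 0.86. *Txnip* thus remained the higher transcript of the pair in all groups, by a smaller factor in both Wnt3a-derived groups. No test of this ratio was run.

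**Figure D3:**
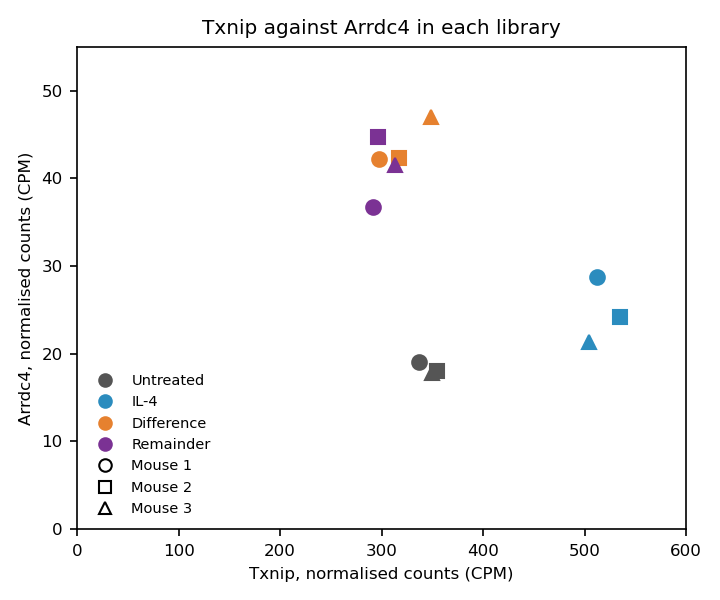
CPM of *Txnip* (x axis, linear) against CPM of *Arrdc4* (y axis, linear), 1 point for each of the 12 libraries, coloured by group. The 6 Wnt3a-derived libraries sit above 36 CPM of *Arrdc4*, the 3 IL-4 libraries above 504 CPM of *Txnip*, and the 3 untreated libraries near 18 and 347 CPM.

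*Arrdc3*, an α-arrestin known to restrain energy expenditure in mice, differed between the 2 Wnt3a-derived groups. The gene (ENSMUSG00000074794) lies on the plus strand at chr13:80883384-80896042. It was at 40.2, 37.8 and 34.5 CPM in the difference and at 15.8, 27.9 and 17.7 CPM in the remainder of mice 1 to 3. Every difference library lay above every remainder library. The log2 change from difference to remainder was -0.87 ± 0.19 (SE, adjusted p = 0.017, edgeR), and it was -1.34, -0.44 and -0.96 in the 3 mice. Between these groups 22.4% of all genes had CPM ranges that did not overlap, and 5.25% were called, 2.38% as lower in the remainder. The call was lost without mouse 1 (log2 change -0.67, adjusted p = 0.2, edgeR) and without mouse 3 (-0.83, adjusted p = 0.3, edgeR), and held without mouse 2 (-1.14, adjusted p = 3.7e-04, edgeR). Between the columns as deposited, which share reads, the log2 change was -0.14 (adjusted p = 1, edgeR).

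Untreated BMDMs held 30.4, 20.6 and 30.9 CPM of *Arrdc3*, with mouse 2 low, and IL-4-treated BMDMs 19.2, 17.7 and 21.9 CPM. Against untreated cells, the log2 changes were -0.48 ± 0.20 with IL-4 (adjusted p = 0.26, edgeR), 0.46 ± 0.19 in the difference (adjusted p = 0.1, edgeR) and -0.41 ± 0.20 in the remainder (adjusted p = 0.14, edgeR). None of the 3 passed this test, whereas all 3 did without the low-count filter (adjusted p = 0.0092, 0.0035 and 0.017, edgeR). Without mouse 2, the changes with IL-4 (-0.59, adjusted p = 0.039, edgeR) and in the remainder (-0.86, adjusted p = 5.5e-04, edgeR) did. If the remainder held Wnt3a alone, the IL-4 change of *Arrdc3* with Wnt3a was higher than that without it by 1.35 ± 0.28 on the log2 scale (adjusted p = 0.0069, edgeR). With the difference as Wnt3a alone, the value was -0.39 ± 0.28 (adjusted p = 0.61, edgeR). In the whole table, 7.33% of genes passed under the former assignment (2.91% higher) and 0.105% under the latter. The direction for *Arrdc3* therefore depends on an assignment that the labels do not give.

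*Arrdc1* and *Arrdc2* changed little. *Arrdc1* (ENSMUSG00000026972, chr2:24925352-24935252, minus strand) had means of 92.3 ± 12.6, 89.7 ± 2.48, 79.6 ± 2.49 and 77.9 ± 8.58 CPM (SD, n = 3) in untreated, IL-4, difference and remainder libraries. Averaged over both Wnt3a-derived groups it fell, with a log2 change of -0.21 ± 0.07 (lower in 3 of 3 mice, adjusted p = 0.037, edgeR). This call was lost without any one of the mice (adjusted p from 0.057 to 0.21, edgeR). *Arrdc2* (ENSMUSG00000002910, chr8:70835129-70839720, minus strand) was at 29.0 ± 1.78, 25.8 ± 2.66, 23.9 ± 1.90 and 25.5 ± 2.47 CPM in the same order. Its groups overlapped between neighbours in order of level, but each untreated library lay above each difference library (log2 change -0.28, interval -0.52 to -0.04, lower in 3 of 3 mice, adjusted p = 0.083, edgeR). That change passed under total-count scaling (adjusted p = 0.032, edgeR). Among all genes, 39.2% had untreated and difference ranges that were apart. The Wnt3a change was -0.15 with an interval of -0.32 to 0.02 (adjusted p = 0.17, edgeR).

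*Arrb2* was lower than untreated in every treated group. The gene (ENSMUSG00000060216) lies on the plus strand at chr11:70432635-70440828. It was at 440, 477 and 428 CPM in the untreated BMDMs of mice 1 to 3. The IL-4 libraries held 350.0, 369 and 373 CPM, the difference 395, 358 and 383 CPM and the remainder 326, 290.4 and 290.0 CPM. None of the 9 treated libraries reached the lowest untreated library, and the 3 remainder libraries were the lowest of all. Ranges apart from untreated were common among all genes, at 19.8% with IL-4, 39.2% in the difference and 35.6% in the remainder.

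In the remainder, *Arrb2* fell by 0.57 ± 0.08 on the log2 scale against untreated BMDMs (SE, adjusted p = 7.6e-05, edgeR), or 0.675-fold. It was called in all 12 other settings tried for that comparison. The change was -0.30 ± 0.08 with IL-4 (adjusted p = 0.048, edgeR) and -0.24 ± 0.08 in the difference (adjusted p = 0.033, edgeR). With the mouse as a replicate block, which pairs the samples of each mouse, both fell short of the threshold (adjusted p = 0.085 and 0.056, edgeR). The IL-4 call was also lost without any one mouse (adjusted p from 0.12 to 0.35, edgeR), and the call in the difference without mouse 2 (0.34) or mouse 3 (0.17).

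*Arrb2* was lower in the remainder than in the difference (log2 change -0.33 ± 0.08, lower in 3 of 3 mice, adjusted p = 0.024, edgeR), but not without mouse 2 (adjusted p = 0.07) or mouse 3 (adjusted p = 0.47). Averaged over both groups, the Wnt3a change was -0.26 ± 0.05 (adjusted p = 0.0021, edgeR), and it too was lost without mouse 2 (adjusted p = 0.077) or mouse 3 (adjusted p = 0.081). With the remainder as Wnt3a alone, the IL-4 change of *Arrb2* with Wnt3a was higher than that without it by 0.62 ± 0.11 (adjusted p = 0.0021, edgeR). The opposite assignment gave -0.02 ± 0.11 (interval -0.26 to 0.21, adjusted p = 0.96, edgeR). Among all genes, 7.33% passed under the former assignment (2.91% higher) and 0.105% under the latter.

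*Arrb1*, the other β-arrestin (ENSMUSG00000018909, chr7:99535466-99606771, plus strand), was not called in any comparison with TMM scaling. Under total-count scaling it was called lower in the remainder (-0.24, adjusted p = 0.022, edgeR) and in the Wnt3a average (-0.14, adjusted p = 0.038, edgeR). Its means were 546 ± 48.6, 511 ± 33.0, 506 ± 26.3 and 497 ± 39.4 CPM (SD, n = 3) in untreated, IL-4, difference and remainder libraries, and neighbours in this order overlapped. The Wnt3a change was -0.07 on the log2 scale with an interval of -0.21 to 0.06 (adjusted p = 0.41, edgeR). The ratio of *Arrb1* to *Arrb2* per exon length was 0.311 ± 0.03 in untreated BMDMs, 0.358 ± 0.04 with IL-4, 0.341 ± 0.03 in the difference and 0.421 ± 0.05 in the remainder. Per exon length, *Arrb2* was the higher β-arrestin in each group, whereas in CPM *Arrb1* was the higher. The exon lengths used, 11175 bases for *Arrb1* and 2845 for *Arrb2*, cover all annotated exons.

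**Figure D4:**
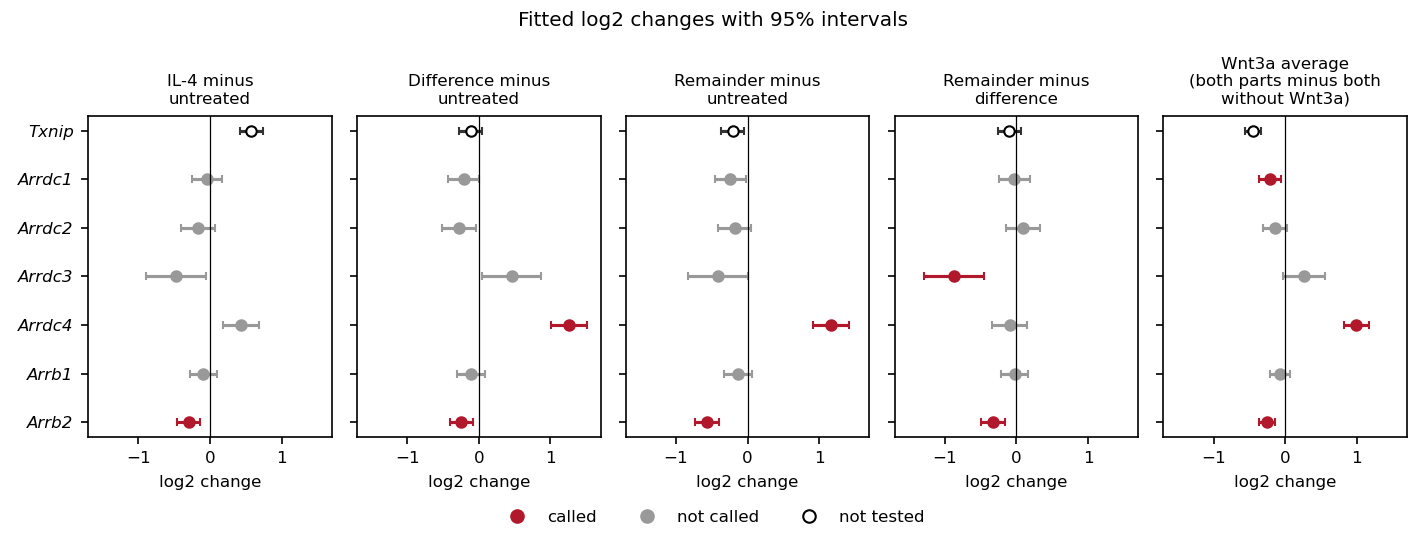
Log2 changes (x axis) of the 7 arrestin family genes (y axis) in each comparison, with 95% confidence intervals as bars and a line at 0. Red points passed the test, grey points did not, and open points were not tested. The bars of *Txnip* do not allow for its choice on these data. Only *Arrdc4* lies near or above 1 in both Wnt3a-derived groups against untreated, *Txnip* lies at 0.57 with IL-4 alone, and *Arrb2* lies below 0 in all comparisons with untreated.

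Counted over the family, 1 of the 6 members other than *Txnip* was called with IL-4 alone (*Arrb2*, lower), against 3.4% of all tested genes, or 1.09% called lower. Both the difference and the remainder had 2 of 6 called against untreated (*Arrdc4* higher and *Arrb2* lower), beside 23.2% and 25.3% of all genes. Among all genes, 11.8% were higher and 11.4% lower in the difference, and 13.6% were higher and 11.7% lower in the remainder. Between the remainder and the difference 2 of 6 were called, *Arrdc3* and *Arrb2*, both lower in the remainder, beside 5.25% of all genes, or 2.38% called lower. In the Wnt3a average 3 of 6 were called, with *Arrdc4* higher and *Arrb2* and *Arrdc1* lower, where 32.6% of all genes were called, 16.5% higher and 16.1% lower. With library totals alone as the scale, the split over all genes in the Wnt3a average was 1633 higher and 2866 lower, in place of 2046 and 2004, and the directions of these 3 members were unchanged. The comparisons with untreated BMDMs share the same 3 untreated libraries, so their counts are not independent.

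Genes whose proteins work with the arrestins were described from 10 lists of 62 genes, of which 52 were tested. In the Wnt3a average 10 were called higher and 9 lower, or 36.5% of those tested, near the background of 32.6%. With IL-4 alone, 1 was called (1.92%), *Ap2m1*, the medium subunit of the AP-2 adaptor (log2 change 0.49, adjusted p = 0.013, edgeR).

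The thioredoxin system, whose central protein is bound by the *Txnip* product, had 6 of 10 genes higher and 1 lower with Wnt3a, at a median log2 change of 0.31 against -0.02 over all tested genes, of which 16.5% were called higher and 16.1% lower. *Prdx5*, a peroxiredoxin that uses thioredoxin to reduce peroxides, was at 257 ± 19.3 CPM in untreated BMDMs and rose to 682 ± 29.6 in the difference and 599 ± 98.5 in the remainder (Wnt3a log2 change 1.34, adjusted p = 8.5e-09, edgeR). *Txn1*, thioredoxin itself, rose by 0.59 (adjusted p = 3.2e-06, edgeR). *Txnrd1*, the reductase that recharges it in the cytosol, fell by 0.43 (adjusted p = 2.4e-05, edgeR). With IL-4 alone 0 of the 10 were called.

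Upstream and downstream of *Txnip*, 1 of 2 tested genes of the MondoA/ChREBP and Mlx list was called with Wnt3a, *Mlx*, at 0.20 (adjusted p = 0.015, edgeR). Both tested glucose transporters of class I were called, in opposite directions. *Slc2a1*, which encodes GLUT1, rose from 55.8 ± 5.10 CPM in untreated BMDMs to 107 ± 5.87 in the difference and 83.9 ± 10.6 in the remainder (Wnt3a log2 change 0.66, adjusted p = 7.3e-06, edgeR). *Slc2a3*, which encodes GLUT3, fell by 0.51 (adjusted p = 6.1e-04, edgeR). Of 6 tested subunits of AMPK, the energy-sensing kinase that phosphorylates TXNIP, only *Prkab2* was called in this comparison, lower by a log2 change of -0.62 (adjusted p = 0.0017, edgeR).

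Of 9 tested NEDD4-family ligases and adaptors, the partners of α-arrestins in ubiquitination, 1 was higher and 3 were lower with Wnt3a. *Wwp1* had the largest change among them, from 190.3 ± 43.5 CPM in untreated BMDMs to 89.8 ± 11.5 in the difference and 84.0 ± 25.9 in the remainder (Wnt3a log2 change -1.08, adjusted p = 5e-05, edgeR). *Smurf1* rose by 0.69 (adjusted p = 1.6e-06, edgeR) and *Nedd4l* fell by 0.38 (adjusted p = 2.5e-04, edgeR). The 4 vesicle budding partners of *Arrdc1* and the 4 other arrestin-fold genes tested had 0 called with Wnt3a.

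Among the genes that act with β-arrestins, the adrenergic receptor gene *Adrb1* had 15, 20 and 12 counts in untreated BMDMs, 7, 11 and 11 with IL-4, 0 in each difference library and 2, 0 and 0 in the remainder, and was called lower with Wnt3a. Of 5 tested G protein-coupled receptor kinases, which phosphorylate receptors before arrestin binds, only *Grk2* was called with Wnt3a, at -0.20 (adjusted p = 0.025, edgeR). Of 8 clathrin and AP-2 genes, *Ap2a1* alone was called in the Wnt3a average, at 0.26 (adjusted p = 0.0089, edgeR). Against untreated, 1 of the 8 was called higher in the difference and 4 in the remainder, beside 11.8% and 13.6% of all genes.

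Genes whose pattern was most like that of *Txnip* were ranked by the root mean square difference of log2 CPM over the 12 libraries, after each gene's mean was subtracted, among the 8504 genes that averaged 8 CPM or more. The closest was *Arhgap25*, a GTPase-activating protein for Rac in blood cells, at a distance of 0.098, against a median of 0.35 over all genes compared. It was at 146 ± 18 CPM in untreated BMDMs, 222 ± 15.3 with IL-4, 124 ± 3.09 in the difference and 124 ± 3.96 in the remainder. *Atp6v1b2*, a subunit of the vacuolar proton pump, and *Mfhas1* followed at 0.125 each. *Anxa1*, the phospholipid-binding protein annexin A1, was at 0.129 and *Socs5*, a suppressor of cytokine signalling, at 0.13. All 5 were highest with IL-4, which follows from their choice by likeness to *Txnip* in these same libraries. *Anxa1*, for instance, was at 854 ± 127 CPM with IL-4 against 527 ± 29.6 in untreated cells. The other arrestins were not part of this ranking. Their distances ran from 0.281 for *Arrdc1* to 0.731 for *Arrdc4*, against the median of 0.35. A gene at the same level in all 12 libraries would lie at 0.31, so *Arrdc1*, *Arrb1* (0.311), *Arrdc2* (0.322) and *Arrb2* (0.346) were about as far from *Txnip* as a flat gene.

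**Figure D5:**
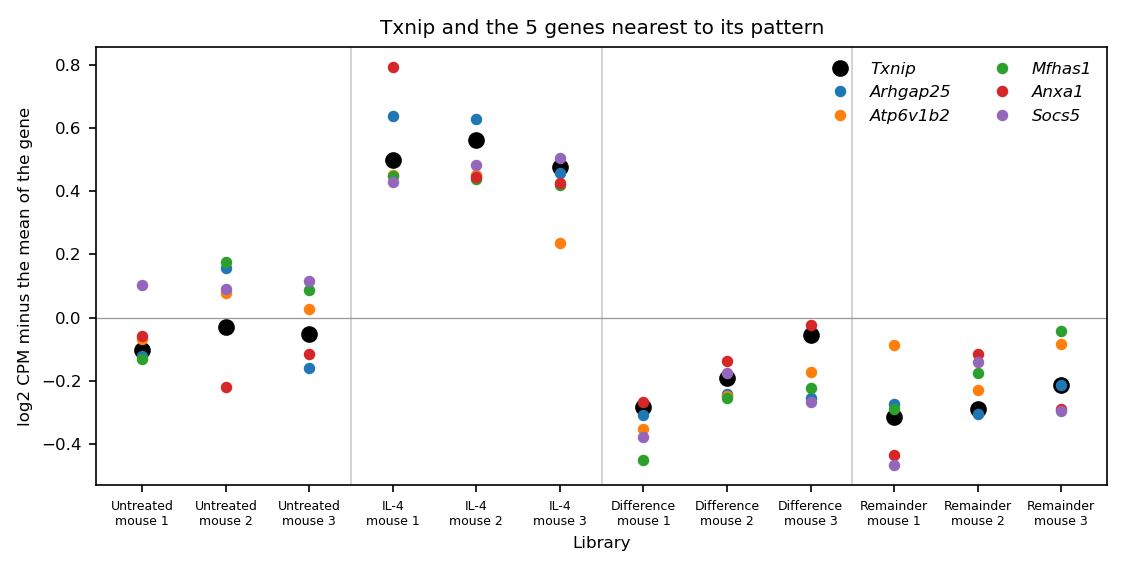
Log2 CPM minus each gene's own mean (y axis) in the 12 libraries (x axis, ordered by group) for *Txnip* in black and the 5 genes with the closest pattern in colour. Each point is 1 library, and for all 6 genes the IL-4 libraries hold the highest points. For the 5 genes in colour this follows from their choice by likeness to *Txnip*.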

How the data were processed

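RNA of BMDMs from 3 mice (1 sample of each of 4 kinds per mouse) was sequenced as single reads. The deposited table holds raw counts per gene, whole numbers without normalization, made by the authors from reads mapped to mm10. The submitters' processing notes name FastQC 0.11.7, Trimmomatic 0.36, STAR 2.6.0, SAMtools 1.9, HTSeq 0.11.1 and DESeq2 1.24.0. The counting's strand setting was not given in the sources used here. Of 48526 identifiers, 48058 had a symbol (GENCODE M21 annotation).

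The Wnt3a and Wnt3a+IL4 columns share reads and were split into the difference and remainder of each mouse. All 12 libraries (13342492 to 17453377 counts) entered 1 fit in edgeR 4.0.16 (R 4.3.3): TMM scaling, a minimum of 10 counts in 3 or more libraries, quasi-likelihood tests, Benjamini-Hochberg adjustment over 12421 genes, threshold 0.05. Log2 CPM used a prior count of 2. Alternatives were DESeq2 1.42.0, other scalings, filters and thresholds, the columns as deposited, each mouse left out, and the mouse as a block. The labels give each mouse 1 sample per group, so the samples are paired by mouse. Correlations of deviations from the group means within a mouse ran from -0.417 to 0.454 over 18 pairs, with 6 above 0.1.

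All 7 members were described. Members, lists, motifs and markers were chosen with earlier results of these data known. Of each list, at most 3 genes called in the Wnt3a average with the largest log2 changes were named, and as genes like *Txnip* the 5 closest non-members. *Ap2m1* and the treatment checks were named in addition. Promoters are RefSeq's (GRCm38.p6), with a window for 5 of 7 members and none for *Arrb1* and *Arrb2*. One gene of the lists is not reported here.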

Additional observations from a re-analysis of the deposited data

Results flagged for a closer look

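Without Wnt3a, the IL-4 change of *Txnip* was upward in all 3 mice. With the difference as Wnt3a alone, its change with Wnt3a was small and downward in all 3 (-0.03, -0.10 and -0.16), and the groups overlapped. The fitted difference between the responses was -0.67 on the log2 scale. With the remainder as Wnt3a alone, which the labels do not exclude, the same small change was upward in all 3 and the value was -0.48. Neither was tested, since this is the property that picked the gene. The same quantity was tested for the other members. With the remainder as Wnt3a alone it passed for *Arrdc3* (1.35, adjusted p = 0.0069, edgeR) and *Arrb2* (0.62, adjusted p = 0.0021, edgeR). Of all genes, 7.33% passed under this assignment (2.91% higher) and 0.105% under the other. In the columns as deposited, the Wnt3a+IL4 column stood in for the remainder, so it was taken as Wnt3a alone against its label. That gave 0.63 (adjusted p = 0.22, edgeR) for *Arrdc3* and 0.36 (adjusted p = 0.052, edgeR) for *Arrb2*. With the difference as Wnt3a alone, neither gene passed (-0.39 and -0.02), nor did they in the columns (0.35, adjusted p = 0.71, and 0.25, adjusted p = 0.34, edgeR). The calls of both genes thus rest on the remainder being Wnt3a alone. The IL-4 target *Mgl2* had 97, 51 and 70 counts in the remainder and 7, 3 and 11 in the difference, whereas *Retnla* had at most 1 in both.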

How the results depend on the processing

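Of the values of the 6 members other than *Txnip* recomputed under the alternatives, 426 kept their direction and their side of the threshold, 17 passed it newly, 31 no longer passed it and 12 changed sign. *Arrdc4* stayed called in both Wnt3a-derived groups under every alternative. The Wnt3a average of *Txnip*, given without a test, ranged from -0.52 to -0.41.

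With IL-4 alone, the number of members called (1 of 6) became 2 with DESeq2, 3 without a filter, 2 with the columns as deposited, and 0 with only the groups compared, with the replicate block or at a threshold of 0.01. Without 1 mouse it was 0 to 1. For the difference against untreated (2 of 6) it was 4 under total-count scaling and 1 with the block or at 0.01, and 1 to 2 without a mouse. For the remainder (2 of 6) it was 4 under total-count scaling. For the remainder against the difference (2 of 6) it was 1 with only those groups, 0 at 0.01, 0 with the columns as deposited, and 0 to 1 without a mouse. In the Wnt3a average, *Arrdc4* stayed called whichever mouse was left out, whereas *Arrdc1* lost its call each time. *Arrb2* lost its call there without mouse 2 or mouse 3. With the remainder as Wnt3a alone, the differing IL-4 responses (2 of 6, beside 7.33% of all genes) were 0 with the columns as deposited and 0 to 2 without a mouse. Pairing by mouse, the replicate block, changed no other call than the 2 of *Arrb2* given above.

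Signs changed only for values that did not pass the test. Over the fits without 1 mouse, *Arrdc1* with IL-4 ranged from -0.15 to 0.028 (-0.041 with all mice), and between remainder and difference *Arrdc1* from -0.131 to 0.05 and *Arrb1* from -0.067 to 0.041. The difference between IL-4 responses, with the difference as Wnt3a alone, ranged from -0.12 to 0.15 for *Arrdc1*, -0.048 to 0.18 for *Arrb1* and -0.072 to 0.077 for *Arrb2*, and with the remainder as Wnt3a alone from -0.078 to 0.15 for *Arrdc1* and -0.042 to 0.197 for *Arrdc2*. With the columns as deposited, *Arrdc3* in the Wnt3a+IL4 column was at 0.07 against untreated. The difference between responses, with the Wnt3a column as Wnt3a alone, was 0.352 for *Arrdc3* and 0.249 for *Arrb2*. For *Arrb2* it was 0.007 under total-count scaling, with the difference as Wnt3a alone. Beyond what shared columns and fewer mice make by construction, the cause was not tested.

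Over all genes, the 422 called with IL-4 became 812 without a filter, 708 with the columns, 227 at 0.01 and 77 without mouse 3. The 652 between remainder and difference became 1454, 0, 279 and 97, with 1188 without mouse 2, 379 without mouse 1 and 422 with only those groups. Without mouse 3, the 2884, 3137 and 4050 of the difference, the remainder and the Wnt3a average became 1220, 1375 and 2081, and the first 2 were 1687 and 1960 at 0.01. With the difference as Wnt3a alone, the 13 differing responses became 165 with DESeq2, 575 without a filter, 142 with the columns, 0 at 0.01, and 3, 34 and 0 without mice 1, 2 and 3. With the remainder as Wnt3a alone, the 910 became 1505 without a filter, 472 at 0.01, 311 with the columns, 1459 without mouse 2 and 265 without mouse 3. Total-count scaling shifted the median log2 change of all genes to -0.10 (difference) and -0.13 (remainder). It turned their splits of 1462 higher and 1422 lower into 1131 and 2238, and 1687 and 1450 into 1293 and 2342. With IL-4 the split of 287 and 135 became 247 and 212.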
